A study of Mus musculus with 209 samples.

Results

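The 8 genes described here encode soluble components and receptors of the complement system: C1qa, C1qb and C1qc, C3, Cfb, Cfp, C3ar1 and C5ar1. They were taken by symbol, and all 8 were found among the 55011 genes of the count table. RNA was sequenced from 209 libraries of 1000 sorted immune cells each, from C57BL/6 mice aged 5 to 8 weeks that had been injected intravenously. The screen covered 14 cell types sorted 2 h after an injection of TNFa, IL1b or IL6 (5 µg each, in PBS) or of PBS alone. Most cytokine groups held 3 libraries. IL1b in MC and DC.8+, TNFa in T.8, and IL6 in B.fo, NK and MC had 2, and pDC had no IL1b group. PBS groups held 5 libraries, or 4 in MC, DC.8+, T.8 and MZB. A time course of 20 libraries followed Mo.6C+ and MFpc at 2, 4, 8 and 24 h after TNFa, against PBS sorted at 24 h, with 2 libraries a group. The last 6 libraries were Mo.6C+ after 1 ng of LPS or after PBS, 3 of each, at a time that the labels do not state. No allele is named beside the strain, and every group, controls included, was injected with 120 µL.

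Cell types are named as in the library titles of the screen. Titles of the time course give MF and Mo.6C, and those with LPS Mo.6C, written here as MFpc and Mo.6C+. MFpc and MC were peritoneal and the other 12 types splenic by title, while the tissue field gives the peritoneal cavity for 158 screen libraries with splenic titles. The titles were followed. Defining markers were present where the results rest: the peritoneal macrophages, MFpc, carried Gata6, Prg4 and Timd4, the splenic macrophages, MFrp, carried Spic, Vcam1 and Cd5l, the monocytes, Mo.6C+, carried Ly6c2 and Ccr2, and GN carried the neutrophil genes S100a8, S100a9 and Mmp8. Total counts ran between 1094567 and 9291121 per library with a median of 4702887. PBS libraries 1, 2 and 3 of MFrp stood apart, with 6 erythroid genes summing to 22536, 46406 and 25266 CPM (counts scaled for library depth), against 1108 and 2388 CPM in the other 2, and values without these 3 are given where MFrp responses are counted. Nothing in the labels says which libraries came from the same mouse, so p-values measure the spread between libraries.

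Complement is a cascade of plasma proteins that marks surfaces and recruits leukocytes. C1qa, C1qb and C1qc encode the chains of C1q, which binds immune complexes and dying cells and opens the classical pathway. C3 is the component on which all pathways converge, Cfb (factor B) forms the alternative pathway's C3 convertase with activated C3, and Cfp (properdin) stabilises that enzyme. C3ar1 and C5ar1 encode G protein-coupled receptors for the small peptides C3a and C5a, of which C5a is a strong attractant of neutrophils. Most C3 in plasma comes from the liver, whereas C1q is made largely by macrophages and dendritic cells and properdin by leukocytes.

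The genes lie on 5 chromosomes of GRCm38, all on the minus strand. C1qa (chr4:136895917-136898803), C1qc (chr4:136889804-136893065) and C1qb (chr4:136880129-136886187) form one cluster. C3 (chr17:57203970-57228136) and Cfb (chr17:34856374-34862518) share a chromosome, and Cfp (chrX:20925454-20931555), C3ar1 (chr6:122847138-122856161) and C5ar1 (chr7:16246743-16259540) stand alone. Cfb shares 2246 exonic bases with Gm20547, a gene with 6 counts over the 209 libraries and at most 2 in any one, so few reads can have been divided between them. The promoters of the receptor genes are shown because these genes gave opposite responses to TNFa in MFpc. Each window, from RefSeq on GRCm38.p6, runs from 250 bases before the gene's start in RefSeq to 50 after it, on the minus strand (C3ar1 at chr6:122856108-122856407, C5ar1 at chr7:16259289-16259588). The positions above are those of GENCODE, whose start of C5ar1 lies 202 bases upstream of RefSeq's, so only 48 bases of the C5ar1 window precede it, while the starts of C3ar1 differ by 4 bases. Capitals mark matches to TGANTCA, of AP-1 type, and to a motif of NF-kB type (GGG, any 2 bases, TT, any base, CC), read on both strands.
C3ar1: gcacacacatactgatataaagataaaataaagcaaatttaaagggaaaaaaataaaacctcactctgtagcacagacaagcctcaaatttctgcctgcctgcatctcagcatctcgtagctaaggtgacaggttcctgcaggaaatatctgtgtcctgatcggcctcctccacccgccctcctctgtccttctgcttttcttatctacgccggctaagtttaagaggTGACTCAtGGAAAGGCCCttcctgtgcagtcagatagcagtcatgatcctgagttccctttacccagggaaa
C5ar1: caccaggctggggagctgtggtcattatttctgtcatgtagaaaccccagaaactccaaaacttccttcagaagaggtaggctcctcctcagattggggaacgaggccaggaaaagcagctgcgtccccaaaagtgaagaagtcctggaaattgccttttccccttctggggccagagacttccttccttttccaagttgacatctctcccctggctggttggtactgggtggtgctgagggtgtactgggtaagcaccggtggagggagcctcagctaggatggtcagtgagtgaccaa
The C3ar1 window held TGACTCA 22 bases before the start and, beside it, GGAAAGGCCC, which matches the NF-kB type motif on the opposite strand, 14 bases before the start. This C5ar1 window, most of which follows the GENCODE start, held neither, nor TTCNNNGAA, of STAT type, nor the interferon response type motif (GAAA, any 2 bases, GAAA). Entries for C3, C1qb, C1qc and Cfp held none of the 4 motifs either, and those for C1qa and Cfb were not used here. Over 32851 promoter windows of the same length, 7.81% held TGANTCA, 4.79% the NF-kB type motif, 8.3% TTCNNNGAA and 3.44% the interferon response type motif. A match in such a window is a description of its letters, not a bound site.

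With PBS, the C1q genes were highest in the 2 macrophage types. Levels with PBS are CPM scaled over the 66 PBS libraries of the screen, whereas values beside a cytokine are CPM scaled within 1 cell type. C1qa averaged 3858 ± 403 CPM in MFpc and 3103 ± 912 CPM in MFrp (SD, n = 5 each), against 70.3 ± 42.1 CPM in DC.8+ (n = 4), the next type. The DC.8+ PBS libraries had 24.9, 51.7, 81.3 and 123 CPM of C1qa. In the same order, the 6 MFrp marker genes summed in them to 397, 440, 915 and 1124 CPM, scaled within DC.8+. The part of such transcripts in the DC.8+ level was not tested. C1qb averaged 7170 ± 451 CPM in MFpc, 4408 ± 1032 CPM in MFrp and 114 ± 66.4 CPM in DC.8+. For all 3 C1q genes the 2 macrophage types were not distinguished, with adjusted p of 0.669 for C1qa, 0.329 for C1qb and 0.6249 for C1qc, whereas MFrp stood above DC.8+. Per kb of exon C1qb was the highest of the 8 genes, at 6590 CPM per kb in MFpc, beside 3710 for C1qa and 371 for C1qc. C1qb had no count in any PBS library of MC or GN, and C1qa none in MC.

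The proportion of the C1q chains differed between the experiments. C1qc stood at between 5.34 and 17.4% of C1qb in the 14 MFpc libraries of the screen and between 27.9 and 49.7% in the 10 MFpc libraries of the time course. C1qa stood at between 46.9 and 57.6% of C1qb in the screen and between 37.2 and 55.7% in the time course. The ranges for C1qc did not overlap, in cells titled MFpc in the screen and MF in the time course. The comparisons with PBS below stay within 1 experiment.

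In PBS libraries the alternative pathway genes were spread over more cell types. C3 was highest in Mo.6C+, at 889 ± 237 CPM, and in GN, at 753 ± 136 CPM, which were not distinguished (log2 difference 0.24, adjusted p = 0.636). MFpc followed with 329 ± 41.4 CPM and MFrp with 123 ± 32.9 CPM, each step being called (GN over MFpc 1.19, adjusted p = 0.009, and MFpc over MFrp 1.42, adjusted p = 0.0048). No other type averaged more than 4.52 CPM of C3, the value in pDC, where PBS library 5 had 19.6 CPM and the other 4 at most 1.98 CPM. Cfb was a low gene, at 39.5 ± 7.17 CPM in MFpc and 6.83 ± 2.51 CPM in Mo.6C+, with 2.71 ± 1.28 CPM in MC and 2.21 ± 1.54 CPM in MFrp. It had no count in Treg, NK, pDC or T.8.

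Cfp was the only member found above 5 CPM in every cell type with PBS. It averaged 6900 ± 566 CPM in MFpc, 3334 ± 650 CPM in MFrp and 986 ± 102 CPM in GN, and each of these steps was called. A middle group of pDC, DC.8+, Mo.6C+ and MZB followed, with 528, 447, 345 and 293 CPM, whose neighbours in that order were not distinguished. B.fo, MC and T.8 had 43.4, 38.9 and 32.4 CPM, and NK, Tgd, T.4 and Treg between 5.25 and 5.92 CPM.

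The receptors had different PBS patterns. C3ar1 was found mainly in MFpc, at 805 ± 79.0 CPM, beside 5.21 ± 3.91 CPM in Mo.6C+ and 4.94 ± 3.55 CPM in MFrp, a log2 difference of 7.26 (SE 0.49) between MFpc and Mo.6C+. It had no count in DC.8+ or MZB. C5ar1 was highest in GN, where the 5 libraries had 3393, 3203, 3107, 3068 and 3030 CPM. MFpc had 459 ± 56.9 CPM, Mo.6C+ 56.0 ± 23.2 CPM and MFrp 15.7 ± 8.23 CPM of C5ar1, and each step down the order was called (log2 2.78, 3.04 and 1.81). All 8 members differed over the 14 types in the F test, as did 92.8% of the 17153 genes tested, so that count is near the background.

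**Figure D1:**
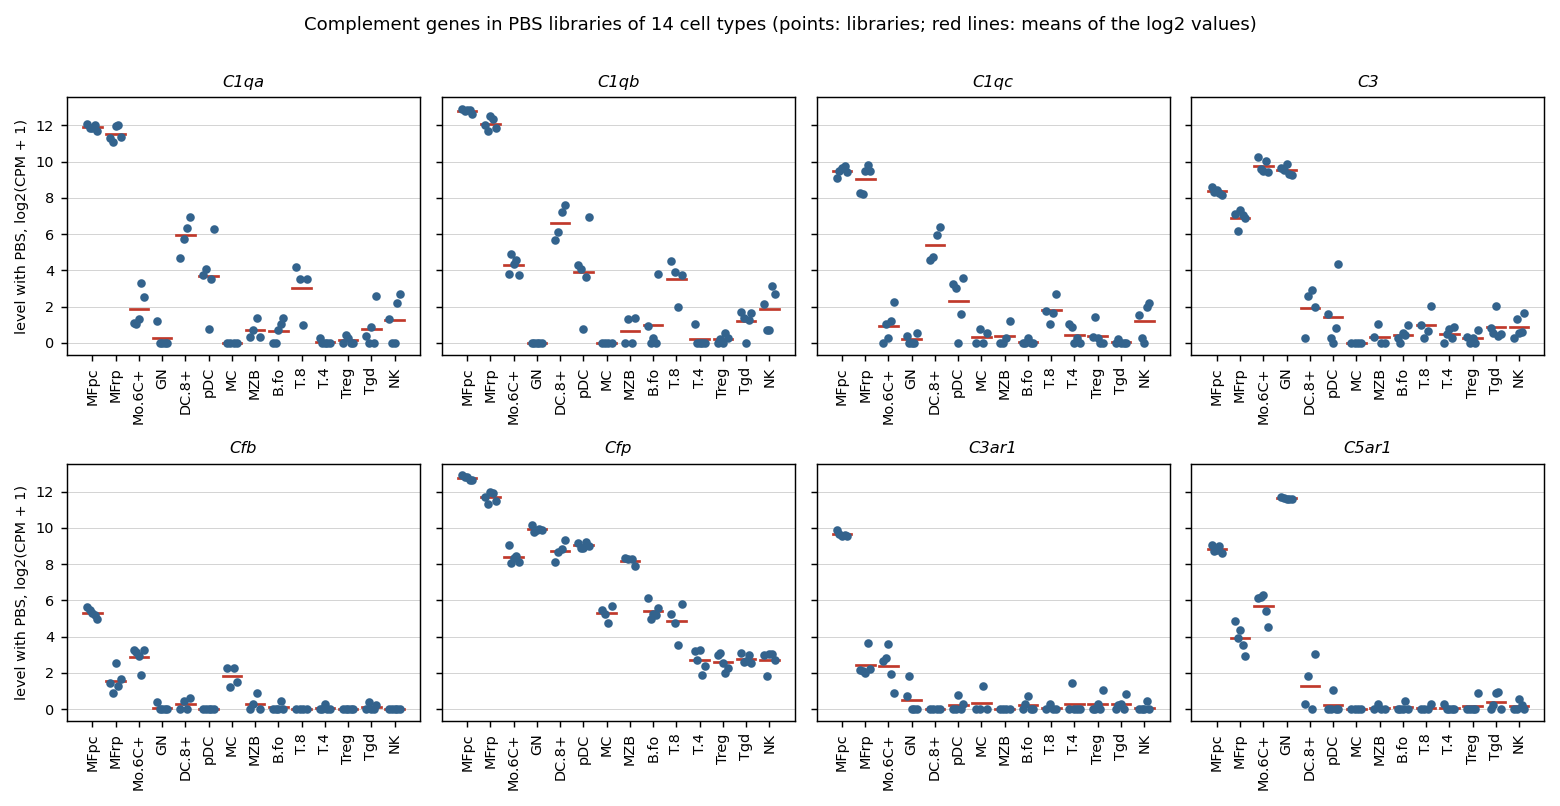
Level of each complement gene with PBS in the 14 cell types, as log2(CPM + 1) with 1 point per library and a red line at the mean of the log2 values. C1q and Cfp peak in MFpc and MFrp, C3 in Mo.6C+ and GN, C3ar1 in MFpc and C5ar1 in GN.

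Across the 14 types, the genes most like each member in mean log2 CPM among 10911 genes were named as a description, without a test. C1qa was most like Fcna (r = 0.995), which encodes ficolin A of the lectin pathway, and then C1qb and C1qc. C3ar1 was most like C4b (0.98), which encodes complement C4, then Colec12 and Fabp7. C5ar1 was most like Clec4d (0.99), a C-type lectin receptor of myeloid cells, then Hnmt and Gda. C3 was most like G6pdx (0.991), Cfb most like Dnah12 (0.964) and Cfp most like Aph1b (0.915). Among members outside C1q, C3 and C5ar1 had r = 0.939 and Cfb and C3ar1 r = 0.905.

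At 2 h the responses lay in the 4 myeloid types MFpc, MFrp, Mo.6C+ and GN, plus Cfp in DC.8+ and pDC. A response is called at a Benjamini-Hochberg adjusted p under 0.05 over all genes tested in that cell type (edgeR's quasi-likelihood test), and fold changes are log2 of cytokine over PBS with their standard error. TNFa raised members in 15 and lowered them in 1 of 58 member-by-type tests, where 8.26 and 7.95% of all tests over genes and types were raised and lowered. With IL1b 12 of 54 tests were raised and none lowered, beside 5.76 and 4.26% of all tests. With IL6 4 of 58 were raised and 1 lowered, beside 1.46 and 0.950% of all tests. Without the filter on low counts IL6 called 7 raised and 3 lowered. Without the 3 PBS libraries of MFrp that were rich in erythroid genes, all 7 calls in MFrp held. Members below the count filter were not tested, in 54 member-by-type pairs for TNFa and IL6 and 50 for IL1b. All 8 members were tested in MFpc, MFrp and Mo.6C+, 7 in DC.8+, and 3 in GN (C3, Cfp and C5ar1). Within single types the background was higher: TNFa raised 26.6% of all genes tested in MFpc, 11.5% in MFrp, 24.3% in Mo.6C+ and 18.5% in GN, against 2, 3, 6 and 2 members. In Mo.6C+ with TNFa the median log2 fold change of the 8 members was 1.89 beside -0.04 over all genes, while in MFpc it was 0.15 beside -0.05. In these bulk samples fewer cells that make a transcript and less RNA per cell cannot be told apart.

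C5ar1 gave the most widespread response. In MFpc it had 2368, 2393 and 2325 CPM with TNFa, 1393, 1108 and 1182 CPM with IL1b and 709, 678 and 674 CPM with IL6, against 370, 299, 305, 356 and 278 CPM with PBS. The 4 groups did not overlap. The log2 fold changes of C5ar1 were 2.88 (SE 0.09, adjusted p = 2.14e-15) for TNFa, 1.93 (SE 0.09, adjusted p = 2.14e-12) for IL1b and 1.09 (SE 0.09, adjusted p = 9.47e-08) for IL6. TNFa exceeded IL1b, and IL1b exceeded IL6, each by a called difference (IL1b minus TNFa -0.94, IL1b minus IL6 0.84).

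In Mo.6C+, C5ar1 had 1021, 998 and 824 CPM with TNFa and 410, 1033 and 813 CPM with IL1b, against 55.1, 58.3, 63.7, 35.1 and 18.2 CPM with PBS. These were log2 changes of 4.36 (SE 0.33, adjusted p = 2.49e-08) and 4.03 (SE 0.33, adjusted p = 1.17e-07). IL6 gave 84.2, 71.2 and 104 CPM of C5ar1, all above the PBS libraries, but the change of 0.91 did not pass (adjusted p = 0.112). Every TNFa and IL1b library lay above every PBS library.

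In MFrp, C5ar1 had 320.5, 394 and 310 CPM with TNFa, 316, 257 and 210 CPM with IL1b and 37.5, 46.0 and 60.3 CPM with IL6, against 24.5, 12.7, 18.1, 10.1 and 6.43 CPM with PBS. Each cytokine raised it, by 4.55 (SE 0.32, adjusted p = 7.91e-08) with TNFa, by 4.16 (SE 0.32, adjusted p = 3.49e-07) with IL1b and by 1.72 (SE 0.31, adjusted p = 0.0201) with IL6. The IL6 call was lost without IL6 library 2 or 3, with an adjusted p of up to 0.159.

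In GN, where it was highest with PBS, C5ar1 had 5020, 5019 and 4473 CPM with TNFa and 2279, 2399 and 1909 CPM with IL1b, against 1622, 1545, 1595, 1597 and 1604 CPM with PBS. TNFa raised it by 1.60 (SE 0.10, adjusted p = 8.98e-10) and IL1b by 0.46 (SE 0.10, adjusted p = 0.00205). The IL1b change of C5ar1 depended on scaling: with library totals in place of TMM factors it was 0.02 with an adjusted p of 0.899, and the median of all genes in GN shifted by -0.437 between the scalings. The TNFa change of C5ar1 was 0.82 with library totals and was still called. With IL6 the libraries had 1345, 1317 and 1432 CPM, all below PBS, and the change was not called.

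**Figure D2:**
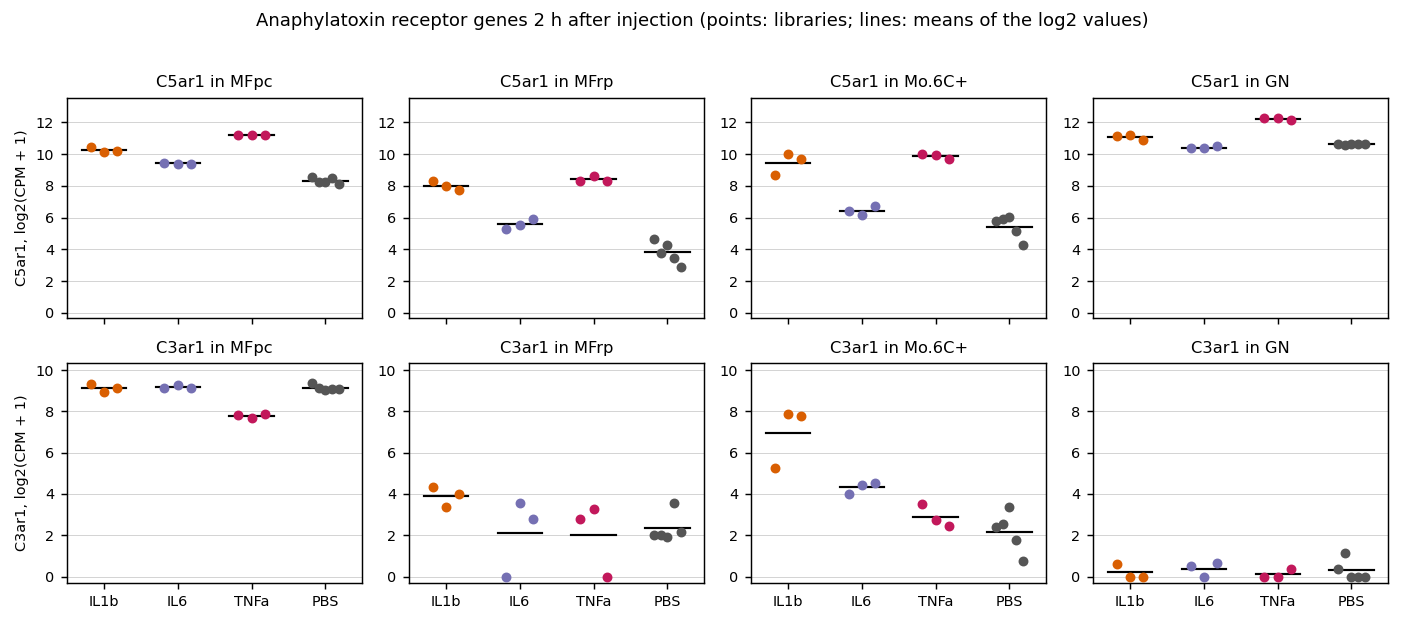
C5ar1 and C3ar1 as log2(CPM + 1), 1 point per library with a line at the mean of the log2 values, by cytokine and PBS in MFpc, MFrp, Mo.6C+ and GN at 2 h. TNFa libraries of MFpc lie above PBS for C5ar1 and below it for C3ar1.

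C3ar1, the receptor for C3a, ran against C5ar1 in MFpc under TNFa. It had 226, 204 and 230 CPM with TNFa, against 667, 559, 526, 535 and 533 CPM with PBS. The groups did not overlap, and C3ar1 fell by 1.36 on the log2 scale (SE 0.10, adjusted p = 7.24e-10). With IL1b (634, 495 and 555 CPM) and IL6 (557, 623 and 565 CPM) C3ar1 overlapped PBS and was not called. TNFa differed from both (IL1b minus TNFa 1.35, TNFa minus IL6 -1.40). The 6 MFpc markers summed to 18051 to 21399 CPM with TNFa, against 21469 to 22815 CPM with PBS.

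In monocytes C3ar1 rose, and with a different cytokine. Mo.6C+ had 36.7, 236 and 215 CPM of C3ar1 with IL1b, against 4.26, 4.82, 9.34, 2.36 and 0.712 CPM with PBS. That is a log2 change of 5.23 (SE 0.57, adjusted p = 2.61e-06), with IL1b library 1 well below the other 2 but above every PBS library. With TNFa the libraries had 10.3, 5.72 and 4.40 CPM, overlapping PBS (adjusted p = 0.41), and IL1b exceeded TNFa by 4.56 (adjusted p = 0.0003). IL6 gave 15.0, 20.4 and 22.5 CPM of C3ar1, a change of 2.16 (SE 0.57, adjusted p = 0.0328) that was lost without PBS library 1, 2, 4 or 5 or IL6 library 2 or 3 (up to 0.161) and with the replicate block. In MFrp, IL1b gave 19.3, 9.27 and 14.9 CPM against 3.09, 3.06, 2.77, 10.6 and 3.48 CPM with PBS, a difference that was not called (log2 1.66, adjusted p = 0.335).

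C3 rose with all 3 cytokines in neutrophils. In GN it had 2769, 3456 and 2929 CPM with TNFa, 906, 765 and 969 CPM with IL1b and 724, 761 and 663 CPM with IL6, against 388, 361, 488, 331 and 328 CPM with PBS. The log2 changes of C3 were 3.01 (SE 0.14, adjusted p = 3.2e-11), 1.21 (SE 0.14, adjusted p = 4.46e-06) and 0.92 (SE 0.14, adjusted p = 0.000802). TNFa exceeded IL1b by a called difference (IL1b minus TNFa -1.79), and no cytokine library overlapped the PBS range. The 6 neutrophil markers themselves summed to between 131600 and 152175 CPM with TNFa, against 38348 to 51937 CPM with PBS. The monocyte list (Ly6c2, Ccr2, F13a1, Vcan, Ms4a4c) summed in GN to 602 to 705 CPM with TNFa, 353 to 464 CPM with IL1b and 197 to 289 CPM with IL6, against 45.2 to 118 CPM with PBS, with Ccr2, F13a1 and Ms4a4c at 0 in every TNFa library. The part of these transcripts in the C3 change was not tested. With library totals, which shift the median gene of the TNFa comparison by -0.781, the call of C3 in GN held.

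MFrp also raised C3. It had 404, 405 and 347 CPM with TNFa and 266, 238.5 and 265 CPM with IL1b, against 120, 65.2, 147, 125 and 114 CPM with PBS, changes of 1.75 (SE 0.22, adjusted p = 3.77e-05) and 1.17 (SE 0.22, adjusted p = 0.00254) with no overlap. The neutrophil list summed in MFrp to 170 to 363 CPM with TNFa and 279 to 289 CPM with IL1b, against 68.0 to 164 CPM with PBS, and its part was not tested. In Mo.6C+, where C3 was highest with PBS, it did not move with TNFa beyond the spread: 1096, 641 and 626 CPM with TNFa, against 1005, 623, 602, 863 and 571 CPM with PBS (log2 0.10, adjusted p = 0.731). The TNFa response of C3 was smaller in Mo.6C+ than in GN (Mo.6C+ minus GN -2.78, adjusted p = 0.0004), and likewise in MFpc (MFpc minus GN -2.64, adjusted p = 0.0008), while MFrp was not distinguished from GN (MFrp minus GN -1.09, adjusted p = 0.248).

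Cfb was raised by TNFa in MFpc, MFrp and Mo.6C+, and was not called in DC.8+, the other type where it was tested. MFrp had 50.9, 54.4 and 45.9 CPM with TNFa, against 1.54, 0.764, 4.43, 1.36 and 2.14 CPM with PBS (log2 4.57, SE 0.53, adjusted p = 1.39e-05). Mo.6C+ had 85.2, 65.8 and 55.6 CPM with TNFa, against 7.01, 6.38, 5.42, 2.18 and 7.12 CPM with PBS (3.60, SE 0.30, adjusted p = 7.05e-08). MFpc had 93.9, 109 and 96.4 CPM with TNFa, against 34.6, 30.5, 27.3, 24.7 and 21.2 CPM with PBS (1.85, SE 0.16, adjusted p = 4.87e-09). No TNFa library overlapped PBS, and the response of Cfb was smaller in MFpc than in MFrp (MFpc minus MFrp -2.80, adjusted p = 0.0273).

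IL1b raised Cfb less. MFpc had 58.1, 35.8 and 43.5 CPM with IL1b, all above PBS, a change of 0.73 (SE 0.16, adjusted p = 0.00141). Mo.6C+ had 13.4, 15.0 and 8.08 CPM (1.09, SE 0.31, adjusted p = 0.0109) and MFrp 7.47, 4.38 and 19.1 CPM (2.29, SE 0.52, adjusted p = 0.0083), where IL1b library 2 lay within the PBS range. Without IL1b library 2 in Mo.6C+ and without IL1b library 3 in MFrp these Cfb calls were lost (adjusted p = 0.0674 and 0.123). TNFa exceeded IL1b for Cfb in MFpc, MFrp and Mo.6C+ (IL1b minus TNFa -1.12, -2.29 and -2.51). With IL6, Cfb was not called against PBS in any of the 4 types tested. In GN, Cfb was below the filter: 1.06, 1.40 and 1.23 CPM with TNFa, against 0.154 CPM in 1 PBS library and no count in the other 4.

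Cfp, high in macrophages with PBS, responded in other cells. Mo.6C+ had 488, 784 and 620 CPM with IL1b and 504, 673 and 626 CPM with TNFa, against 425, 217, 263, 286 and 229 CPM with PBS, rises of 1.15 (SE 0.21, adjusted p = 0.000347) and 1.08 (SE 0.21, adjusted p = 0.000368) without overlap. GN had 799, 1054 and 980.5 CPM of Cfp with IL1b, against 552, 428, 489, 515 and 499 CPM with PBS (0.93, SE 0.12, adjusted p = 1.84e-05). In pDC, Cfp had 877, 987 and 1093 CPM with TNFa, against 579, 497, 481, 620 and 528 CPM with PBS (0.87, SE 0.11, adjusted p = 4.51e-05), where TNFa raised 7.23% of all genes tested.

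In GN, IL1b exceeded TNFa for Cfp by 0.78, the opposite order to C3 and C5ar1 in the same cells. DC.8+ had 586, 665 and 835 CPM of Cfp with TNFa, against 242, 359, 404 and 561 CPM with PBS (0.83, SE 0.25, adjusted p = 0.0364), where TNFa raised 8.05% of all genes. The red pulp macrophage list, of a type with more Cfp, summed in DC.8+ to 1424 to 1973 CPM with TNFa, against 397 to 1124 CPM with PBS, with none of its 6 genes at 0 throughout, and its part was not tested. The Cfp call was lost when the 2 libraries richest in erythroid transcripts (PBS 4 and IL1b 2) were left out together, with library totals, and without PBS library 1, 2 or 4, IL6 library 1 or any single TNFa library (adjusted p up to 0.208). The only decrease of Cfp was small: MFpc had 4164, 4230 and 3857 CPM with IL6, against 5399, 4938, 5016, 4422 and 4394 CPM with PBS (-0.24, SE 0.08, adjusted p = 0.0371, up to 0.175 without PBS library 1, 2 or 3 or any single IL6 library).

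**Figure D3:**
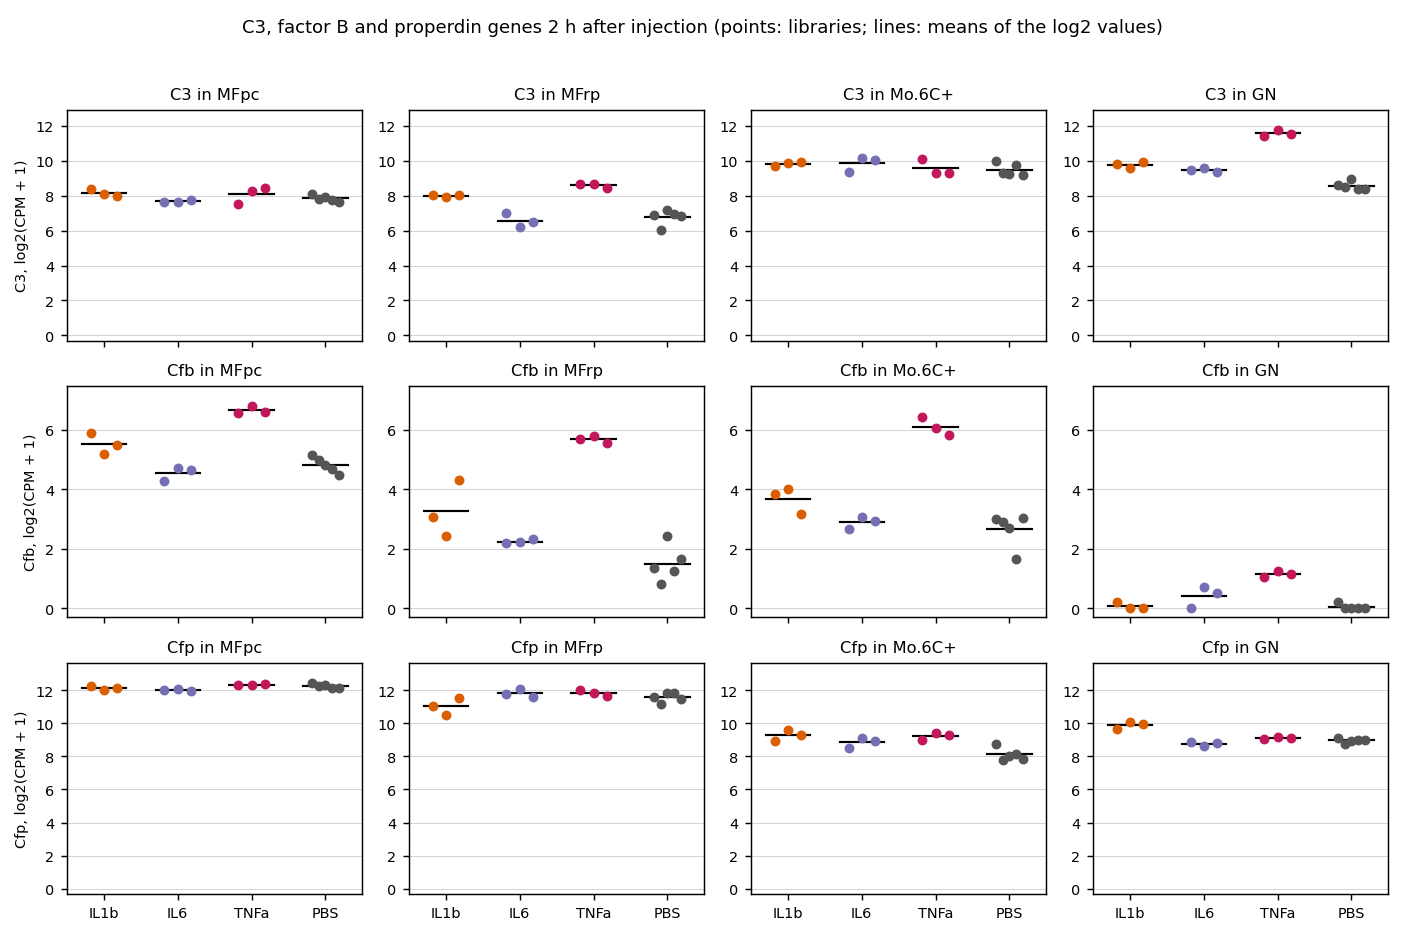
C3, Cfb and Cfp as log2(CPM + 1), 1 point per library with a line at the mean of the log2 values, by cytokine and PBS in MFpc, MFrp, Mo.6C+ and GN at 2 h. C3 in GN and Cfb in MFrp and Mo.6C+ with TNFa lie apart from PBS, and C3 in Mo.6C+ overlaps it.

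At 2 h no C1q gene was called against PBS with any cytokine in MFpc or MFrp, where they are abundant. In MFpc, C1qa had 2690, 2729 and 2697 CPM with TNFa, against 3055, 2596, 2610, 2906 and 2341 CPM with PBS, and C1qb 5510, 5134 and 5299 CPM, against 5383, 5026, 5150, 5045 and 4501 CPM. The log2 changes with TNFa were 0.00, 0.08 and 0.23 for C1qa, C1qb and C1qc (adjusted p = 0.987, 0.349 and 0.39). In MFrp, C1qa had 4210, 5099 and 4378 CPM with TNFa, all above the PBS libraries at 2249, 1968, 3612, 3964 and 2610 CPM, and the change of 0.66 did not pass (adjusted p = 0.0645). Between cytokines, C1qa in MFrp was lower with IL1b than with TNFa (IL1b minus TNFa -1.12, adjusted p = 0.0425). The 6 MFrp marker genes were lower there too. They summed to 9524 to 17269 CPM with IL1b, against 24356 to 33017 CPM with TNFa and 17478 to 32452 CPM with PBS. Their part in the C1qa difference was not tested.

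In Mo.6C+, where C1q was low, TNFa raised all 3 C1q genes. C1qb had 13.02, 56.6 and 74.8 CPM with TNFa, against 10.5, 23.1, 16.4, 18.7 and 10.4 CPM with PBS (log2 1.60, SE 0.58, adjusted p = 0.0318). C1qa had 4.02, 14.3 and 20.4 CPM, against 0.914, 0.851, 1.21, 7.45 and 3.99 CPM (2.17, SE 0.73, adjusted p = 0.0218), and C1qc 3.06, 10.7 and 9.67 CPM, against 0, 0.851, 0.151, 1.09 and 3.13 CPM (2.87, SE 0.89, adjusted p = 0.0133). TNFa library 1 lay within the PBS range for each gene, and all 3 calls were lost without TNFa library 2. Without TNFa library 3, and with library totals, C1qa and C1qb were lost too, and C1qb also without PBS library 1, 3 or 5, with DESeq2 and with the replicate block. Their adjusted p reached 0.116 for C1qa, 0.174 for C1qb and 0.0523 for C1qc. Against PBS, neither IL1b nor IL6 was called for any of the 3 in Mo.6C+. C1qa was higher with IL1b than with IL6 (IL1b minus IL6 3.15, adjusted p = 0.0266). IL1b was not distinguished from TNFa for C1qa, C1qb or C1qc (IL1b minus TNFa -0.75, -0.53 and -1.43, adjusted p = 0.617, 0.666 and 0.399).

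Markers of MFrp moved with C1q in these monocytes. The 6 genes of the red pulp macrophage list summed to between 5336 and 7697 CPM with TNFa and between 2661 and 4513 CPM with IL1b, against 149 to 297 CPM with PBS. Most of that was Hmox1 and Spic. Cd5l had 2.29 to 5.06 CPM with TNFa, against at most 0.993 CPM with PBS, and no count in 3 of the 5 PBS libraries, while the same gene list in MFrp itself reached 17478 CPM or more with PBS. The monocyte list summed to between 2701 and 5539 CPM with TNFa, against 3461 to 6694 CPM with PBS. The part of these transcripts in the C1q change was not tested.

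Differences between the cytokines in the same cells were called in 35 of 166 tests of the members, 27 positive and 8 negative as IL1b minus TNFa, IL1b minus IL6 or TNFa minus IL6, beside 3.64 and 3.21% of all such tests. Differences between cell types were tested over all types at once and in pairs of the 4 myeloid types, where 17 of 144 tests of the members were called, beside 7.90% of all such tests. Over the 14 types the response to TNFa differed for C5ar1 (joint adjusted p = 5.4e-06), C3 (0.00014), Cfb (0.0053) and C1qc (0.018), where 36.3% of 21905 genes were called. These tests also took in types where the member was below the count filter of the single type. With TNFa these were 9 of the 14 types for C5ar1, 7 for C3, 10 for Cfb and 6 for C1qc. Among the pairs, those with GN rest on few counts for the members below its filter. For IL1b over 13 types it differed for C5ar1 (8.9e-08) and C3ar1 (2.8e-06), beside 22.8% of genes, and for IL6 no member was called, beside 6.87%. The IL1b response of C3ar1 was larger in Mo.6C+ than in MFpc (MFpc minus Mo.6C+ -5.30) and than in MFrp (MFrp minus Mo.6C+ -3.55, adjusted p = 0.0015). C5ar1 responded less to IL1b in MFpc than in MFrp (MFpc minus MFrp -2.27, adjusted p = 0.0037) or than in Mo.6C+ (MFpc minus Mo.6C+ -2.16, adjusted p = 0.0049). The TNFa response of C3ar1, lowered in MFpc, was not shown to differ over the types (joint adjusted p = 0.405).

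LPS, a component of the outer membrane of Gram-negative bacteria, raised 4 of the 8 members in Mo.6C+, where 10.2% of all genes were raised and 8.38% lowered. C5ar1 had 388, 506 and 405 CPM with LPS, against 35.0, 44.3 and 33.0 CPM with PBS (log2 3.53, SE 0.26, adjusted p = 9.86e-05). Cfb had 44.2, 107.5 and 114 CPM, against 3.89, 4.57 and 5.83 CPM (4.20, SE 0.43, adjusted p = 0.000321), and Cfp 791, 603 and 582 CPM, against 262, 221 and 234 CPM (1.46, SE 0.23, adjusted p = 0.00233). C3ar1 had 20.5, 26.8 and 29.1 CPM with LPS, against 11.3, 3.14 and 4.19 CPM with PBS (2.00, SE 0.49, adjusted p = 0.0186, up to 0.0700 without PBS library 3 or LPS library 2 or 3). No LPS library overlapped PBS for these 4 genes, with 3 libraries on each side, and the share of all genes that did so is not given here. Marker lists moved with LPS too: the neutrophil list summed to 1054 to 1413 CPM with LPS, against 459 to 552 CPM with PBS, the red pulp macrophage list to 823 to 1597 CPM, against 283 to 475 CPM, and the monocyte list to 8668 to 12793 CPM, against 5222 to 7699 CPM. The part of these transcripts in the LPS responses was not tested.

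C3 had 873, 1290 and 2191 CPM with LPS, against 972, 443 and 933 CPM with PBS, which overlapped (log2 0.89, adjusted p = 0.141). C1qa had 18.6, 18.03 and 14.8 CPM with LPS, against 29.7, 13.1 and 15.4 CPM with PBS. Set against the 2 h responses in the same cell type, which have their own PBS libraries, the LPS response differed from that to TNFa for none of the 8 members, beside 6.64% of all genes. It exceeded the response to IL1b for Cfb by 3.16 (adjusted p = 0.000807) and fell short of it for C3ar1 (LPS minus IL1b -3.20, adjusted p = 0.0277), beside 5.11% of genes. Against IL6 the LPS response was larger for Cfb by 4.05 and for C5ar1 by 2.68, beside 9.92%. The experiments and their times differ as well, and these cannot be told apart from the agent.

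The time course showed responses of the members that lasted past 2 h. Over its 4 times, 20 of 32 tests were raised and 1 lowered in Mo.6C+, where 12.5 and 12.3% of all tests were raised and lowered. In MFpc 11 of 32 were raised and 8 lowered, beside 14.1 and 12.6%. The 24 h background was lower, with 2.74% of genes raised in Mo.6C+ and 3.81% raised and 2.86% lowered in MFpc. At 24 h, 6 members were raised in Mo.6C+ and 2 were raised and 4 lowered in MFpc. Each group held 2 libraries, and PBS was sorted at 24 h only, so an effect of TNFa at the earlier times cannot be told apart from one of the injection itself. Of 48 steps between neighbouring times 12 were called, beside 13.1% of all such tests, and of 32 differences between the responses of MFpc and Mo.6C+ 17 were called, beside 7.31%.

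C5ar1 in MFpc was transient. It had 306 and 297 CPM with PBS, and after TNFa 2275 and 2455 CPM at 2 h, 1601 and 1347 CPM at 4 h, 588 and 673 CPM at 8 h and 329 and 267 CPM at 24 h. Each step down was called (4 h minus 2 h -0.68, 8 h minus 4 h -1.22, 24 h minus 8 h -1.08), and at 24 h C5ar1 had a log2 change of -0.02 (adjusted p = 0.976). In Mo.6C+ it had 36.9 and 58.0 CPM with PBS, and after TNFa 1354 and 925 CPM at 2 h, 1108 and 1017 CPM at 4 h, 303 and 447.5 CPM at 8 h and 338 and 393 CPM at 24 h. Monocyte C5ar1 was still raised at 24 h (2.95, adjusted p = 0.000158), and the 24 h response in MFpc was lower than in Mo.6C+ (MFpc minus Mo.6C+ -2.97).

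C3ar1 in MFpc had 559 and 551 CPM with PBS, and after TNFa 226.5 and 234 CPM at 2 h, 157 and 170 CPM at 4 h, 444 and 361 CPM at 8 h and 337 and 357 CPM at 24 h. It was lowered at each time (log2 changes -1.27, -1.76, -0.46 and -0.68), and the rise between 4 and 8 h was called (1.30, adjusted p = 0.0003). In these libraries C3ar1 was lowest at 4 h, and C5ar1 highest at 2 h. The 6 MFpc markers summed to 14612 and 15079 CPM with PBS. After TNFa they summed to 17035 and 17664 CPM at 2 h and 11375 and 9590 CPM at 4 h. Their part in the C3ar1 course was not tested. The 8 h and 24 h calls of C3ar1 were lost without PBS library 1 or 2 (adjusted p up to 0.170 and 0.164). In Mo.6C+, C3ar1 had 27.2 and 97.3 CPM at 24 h, beside 3.48 and 11.6 CPM with PBS, and was called at no time (24 h adjusted p = 0.0876).

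Cfb was raised at every time. In MFpc it had 17.4 and 21.4 CPM with PBS, and after TNFa 126 and 125 CPM at 2 h, 178 and 176 CPM at 4 h, 232 and 141.5 CPM at 8 h and 55.5 and 94.0 CPM at 24 h. In Mo.6C+ it had 3.67 and 2.19 CPM with PBS, and after TNFa 76.7 and 81.3 CPM at 2 h, 150 and 97.3 CPM at 4 h, 89.7 and 102.5 CPM at 8 h and 26.6 and 20.5 CPM at 24 h. All 8 comparisons of Cfb with PBS were called, by 1.94 to 5.38, and the drop between 8 and 24 h was called in both types (-1.32 in MFpc, -2.03 in Mo.6C+). The step between 2 and 4 h was called in neither type.

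C3 was raised at every time in MFpc, with 675 and 657 CPM at 2 h and 369 and 580 CPM at 24 h, beside 247.5 and 284 CPM with PBS (log2 1.32, 1.07, 0.86 and 0.83 over the 4 times, the 8 and 24 h calls being lost without PBS library 1 or 2, with adjusted p up to 0.121 and 0.302). In Mo.6C+ C3 was not called at any time, with 998.5 and 894 CPM at 24 h beside 1319 and 1338 CPM with PBS. The 2 h rise of C3 in MFpc (adjusted p = 0.000774) was not called in the screen, where the TNFa libraries had 183.1, 309 and 349 CPM against 277, 222, 243, 211 and 201 CPM with PBS (log2 0.28, adjusted p = 0.131). Cfp was raised at each time in Mo.6C+, by 0.82 to 0.97, each lost without PBS library 1 or 2 (adjusted p up to 0.327), and was not called in MFpc (24 h -0.52, adjusted p = 0.182).

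**Figure D4:**
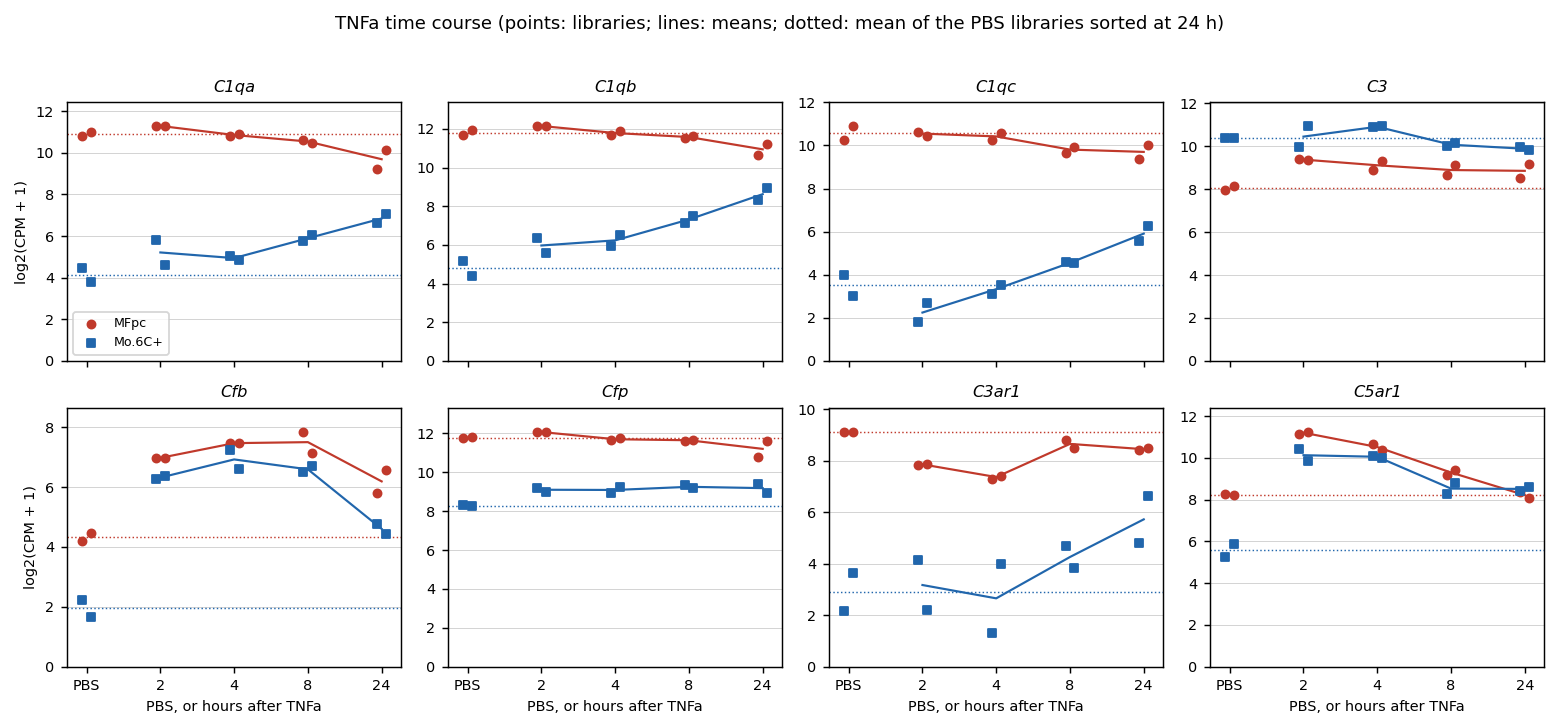
Level of each member with PBS at 24 h and at 2, 4, 8 and 24 h after TNFa in Mo.6C+ and MFpc, as log2(CPM + 1) with 1 point per library, lines through the means and a dotted line at the PBS mean. C5ar1 returns to PBS by 24 h in MFpc, and C1q climbs in Mo.6C+ while it is lower at 24 h in MFpc.

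The C1q genes took opposite directions in the 2 cell types. In Mo.6C+, C1qb had 35.2 and 20.3 CPM with PBS, and after TNFa 80.0 and 47.4 CPM at 2 h, 60.9 and 90.4 CPM at 4 h, 137 and 182 CPM at 8 h and 314 and 493 CPM at 24 h. The log2 changes of C1qb were 1.19, 1.44, 2.52 and 3.86 (24 h adjusted p = 0.000129), with called steps between 4 and 8 h (1.08, adjusted p = 0.0471) and 8 and 24 h (1.34, adjusted p = 0.0215). C1qa reached 96.6 and 134 CPM at 24 h, beside 21.1 and 12.7 CPM with PBS (2.77, adjusted p = 0.00164), and C1qc 46.3 and 75.2 CPM, beside 14.9 and 7.17 CPM (2.46, adjusted p = 0.0049). At 2 h, C1qc had 2.53 and 5.33 CPM, below PBS (-1.45, adjusted p = 0.0251), the reverse of its screen direction, and that call was lost without PBS library 1 or TNFa library 1 of that time (adjusted p up to 0.269). Without PBS library 2 the 24 h call of C1qc was lost (up to 0.0726), as were the 2 h and 4 h calls of C1qb (up to 0.159 and 0.0928).

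In MFpc the C1q genes were lower at 24 h, and C1qc also at 8 h. At 8 h C1qc had 815 and 985 CPM, against 1220 and 1924 CPM with PBS (-0.81, adjusted p = 0.0257), a call that was lost without PBS library 2 or TNFa library 1 of that time (up to 0.295). At 24 h C1qa had 606 and 1127 CPM, against 1820 and 2063 CPM with PBS (-1.16, adjusted p = 0.00941), C1qb 1628 and 2380 CPM, against 3267 and 3874 CPM (-0.83, adjusted p = 0.0176), and C1qc 668 and 1035 CPM, against 1220 and 1924 CPM (-0.89, adjusted p = 0.0476). The groups, of 2 libraries each, did not overlap, and the share of all genes that did so is not given here. Without PBS library 2 each of these 24 h calls was lost, and leaving out single libraries gave adjusted p of up to 0.0756 for C1qa, 0.187 for C1qb and 0.460 for C1qc. The difference MFpc minus Mo.6C+ at 24 h was -3.93 for C1qa, -4.69 for C1qb and -3.34 for C1qc, all called. In MFpc the 6 MFpc markers summed to 14612 and 15079 CPM with PBS. After TNFa they summed to 9890 and 8186 CPM at 8 h and 12454 and 14889 CPM at 24 h. Their part in the C1q changes was not tested.

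The sum of the red pulp list followed another course than C1q in the Mo.6C+ time course, whereas Cd5l and Mertk were higher at 24 h. The list sum was 250 to 315 CPM with PBS. After TNFa it was 3332 to 5219 CPM at 2 h, 4148 to 4904 CPM at 4 h and 2000 to 4304 CPM at 8 h. At 24 h, when C1q was highest, it was 609 to 687 CPM. Cd5l had 17.4 to 51.1 CPM at 24 h, beside 8.62 to 9.76 CPM with PBS, and Mertk, a receptor for dying cells that macrophages express, 121 to 152 CPM, beside 1.59 to 5.68 CPM. The MFpc list stayed between 26.3 and 31.9 CPM at 24 h, beside 26.3 to 33.9 CPM with PBS. The monocyte list was lower at 24 h, at 3250 to 4226 CPM, beside 6528 to 6739 CPM with PBS. The part of any such cells in the C1q rise was not tested.

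The rest of the pathway was read from 4 lists of other complement genes. At 2 h of TNFa, classical and lectin pathway genes were raised in 1 and lowered in 1 of 35 tests, alternative and terminal pathway genes raised in 2 and lowered in none of 21, regulators raised in 4 and lowered in 9 of 56, and other receptors raised in 15 and lowered in 12 of 86, beside the 8.26 and 7.95% of all tests given above. With IL1b the classical and lectin genes were raised in none and lowered in 2 of 34 tests, the alternative and terminal genes raised in 1 and lowered in 1 of 19, the regulators raised in 5 and lowered in 4 of 52, and the other receptors raised in 12 and lowered in 4 of 80, beside 5.76 and 4.26%. With IL6 the classical and lectin genes were raised in 1 and lowered in 2 of 35 tests, the regulators raised in 1 and lowered in none of 56, and the other receptors raised in 6 and lowered in 2 of 86, beside 1.46 and 0.950%. Of the 21 IL6 tests of alternative and terminal genes, edgeR called 0, and 2 had an unadjusted p under 0.05. With LPS, 5 classical and lectin genes, 1 alternative or terminal gene, 4 regulators and 7 other receptors were tested. Of these 1 was called, Cd93, a membrane glycoprotein, which was lower (37.8 CPM with LPS and 94.7 CPM with PBS, log2 -1.33). Among all genes 10.2% were raised and 8.38% lowered.

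Cd55, decay-accelerating factor, which dissociates C3 convertases, carried much of the regulator count. TNFa raised Cd55 by 3.35 in MFpc, by 2.19 in MFrp and by 4.34 in GN, where it averaged 71.5 CPM with TNFa and 3.50 CPM with PBS, and by 0.56 in MC, and lowered it in 7 other types, among them NK, T.4 and B.fo. IL1b raised it in MFpc, MFrp, GN and MC (3.25, 2.26, 3.34 and 1.00) and lowered it in NK, T.4, MZB and B.fo (-1.07 to -0.74), and IL6 raised it in GN (2.66). C5ar2, the second C5a receptor, parted from C5ar1 in GN: it averaged 58.8 CPM with TNFa and 273 CPM with PBS (-2.21), while C5ar1 rose, and it was also lower in GN with IL1b (-0.63) and IL6 (-0.67). TNFa raised C5ar2 in MC, MFrp and Mo.6C+ (4.24, 0.99 and 1.08), and IL1b and IL6 raised it in MFpc (1.01 and 1.28) and in Mo.6C+ (3.40 and 2.21). Itgam and Itgb2, the chains of complement receptor 3, rose with IL1b in MFrp, Mo.6C+ and GN, by 0.98 to 2.50 for Itgam and by 0.39 to 0.46 for Itgb2. Itgam was lower with IL1b in NK (-0.82) and with TNFa in MFpc and NK (-1.28 to -0.20), and rose in GN with TNFa (0.65) and IL6 (0.45). TNFa raised Itgb2 in Mo.6C+ and GN (0.29 to 0.66) and lowered it in DC.8+ and T.4 (-0.51 to -0.33). Calr (calreticulin) rose with TNFa in 6 types, by 0.28 to 1.46, was lower in B.fo (-0.40), and rose in Mo.6C+ with IL1b (1.26) and IL6 (0.69). C1qbp, a mitochondrial protein named for binding C1q, rose with TNFa in MFpc, NK and pDC, by 0.68 to 1.58, with IL1b in MFpc and NK (0.75 to 0.97) and with IL6 in MFpc and T.4 (0.46 to 0.53). Itgax, a chain of complement receptor 4, was lower with TNFa in NK, GN and pDC (-1.23 to -0.49) and higher with IL1b in Mo.6C+ (2.03).

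In the time course, Itgax rose in Mo.6C+ by 3.12 at 4 h, 3.76 at 8 h and 1.79 at 24 h. Fcna (4 h -1.52, 8 h -2.17) and Cd93 (-1.62, -2.21 and -1.21 at 2, 4 and 8 h) were lower there, while Calr rose at 2, 4 and 8 h (0.96, 1.76 and 1.17), C1qbp at 4 and 8 h (0.84 and 1.69) and Itgam at 8 h (0.77). In MFpc, Cd55 was raised at 2, 4, 8 and 24 h (3.27, 3.76, 3.59 and 2.33) and Vsig4, a macrophage receptor for C3b, was lowered at 4 and 8 h (-1.26 and -1.64). C4b, which encodes the C4 that the classical convertase uses, was raised in MFpc at 2 h, with 6522 CPM after TNFa and 3608 CPM with PBS (0.85). Colec12, a collectin of scavenger receptor type, was lower in MFpc at 4, 8 and 24 h (-0.88, -1.97 and -1.23), as were Cd93 at 4 h (-1.13) and Calr at 8 h (-0.66). C1qbp was raised at 4 and 8 h (1.29 and 1.01) and Itgb2 at 24 h (0.66).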

How the data were processed

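The authors deposited one table of raw read counts per gene, unnormalised, made with STAR 2.7.3a on mm10 and featureCounts per the submitters' processing notes. Neither annotation, strand setting nor treatment of multimapping reads is stated there. Counts were tested with edgeR 4.0.16 in R 4.3.3 (quasi-likelihood test, TMM scaling, filterByExpr). One fit was made per cell type of the screen, per cell type of the time course and for LPS, and one over all screen libraries for differences between types, whose dispersion trend used 1 gene in 8. P-values were adjusted by Benjamini-Hochberg over all genes tested, with a threshold of 0.05, and the standard error is the fold change over the root of F. CPM values are scaled to each fit. Likeness used log2 CPM with a prior count of 2 and genes reaching 20 CPM in a type, the 3 nearest genes being named. Depth was 1094567 to 9291121 counts per library, so members near 0 in lymphoid types could not be tested. Scripts were tested on simulated data. Alternatives were DESeq2 1.42.0, size-factor scaling, no filter, the replicate number as a block, leaving out libraries, and library totals, the last added after the data were seen for the responses. The members, gene lists and markers were chosen with earlier results of these data known. Every member is described. Other complement genes are named where called in at least 3 cell types in 1 direction with a cytokine, or in the time course or with LPS where the higher mean reached 20 CPM. Positions came from GENCODE vM21 by symbol (53009 of 55011 found) and promoters from RefSeq (6 of 8 members found). One gene of the regulator list is counted with its list but not reported here.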

Additional observations from a re-analysis of the deposited data

Results flagged for a closer look

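The levels of each member in each group of 4 to 10 libraries made 58 sets, and in 8 of them 1 PBS library lay far from the rest. Chance gives about 1 in 20 where values are normally distributed. Several of the 8 sets lie near 0 counts, where 1 or a few reads set a library apart. No excess over chance was therefore read from the count. In pDC, PBS library 5 had 78.9 CPM of C1qa and 126 CPM of C1qb, beside at most 16.1 and 18.5 CPM in the other 4. The red pulp macrophage markers of the same pDC library summed to 714 CPM, beside 29.1 to 122 CPM in the others, and the Cfp response of pDC held without it. Library 5 of B.fo PBS had 14.5 CPM of C1qb, beside at most 0.970 CPM. In Tgd PBS, library 5 had 6.28 CPM of C1qa (next 1.02), library 3 had 3.81 CPM of C3 (next 0.936) and library 2 had 0.197 CPM of C1qc, where the others had no count. In MFpc, PBS library 1 had 667 CPM of C3ar1 (next 559), and in MFrp, PBS library 4 had 10.6 CPM (next 3.48).

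The response differed between cell types, in 1 joint test over all types, for C3ar1 (adjusted p = 2.8e-06) and C5ar1 (8.9e-08) with IL1b, and for C5ar1 (5.4e-06), C3 (0.00014), Cfb (0.0053) and C1qc (0.018) with TNFa. The joint tests took in types where the member was below the count filter. In the time course, 17 differences between the TNFa responses of MFpc and Mo.6C+ were called, all negative as MFpc minus Mo.6C+. For Cfb they were -2.10 at 2 h, -2.29 at 4 h and -1.82 at 8 h. For C5ar1 they were -1.67 at 2 h, -2.29 at 4 h, -1.99 at 8 h and -2.97 at 24 h. For C1qb they were -1.55 at 4 h, -2.81 at 8 h and -4.69 at 24 h, for C1qa -2.24 at 8 h and -3.93 at 24 h, and for C1qc -1.89 at 8 h and -3.34 at 24 h. For Cfp they were -1.18 at 8 h and -1.44 at 24 h, and for C3ar1 -3.74 at 24 h. These rest on 2 libraries a group and on PBS sorted at 24 h only.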

How the results depend on the processing

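Of 112 called single responses and differences, 82 held under every alternative run for them, 30 were lost under at least 1, and 0 reversed. The 35 called differences between cytokines were rerun only with RLE size factors and with the replicate block. They had fewer ways to be lost than the other 77. All 112 held with RLE size factors. DESeq2 lost 1 of 77, no filter on low counts 1 of 77, and library totals, added after the data were seen, 8 of 77. The largest loss came from leaving out single libraries, where 28 of 77 were lost at least once (88 of 881 values not called). The count of calls for IL6 at 2 h was 10 (7 raised and 3 lowered) without the filter, against 5 with it. Leaving out 1 library at a time gave 11 to 13 calls for IL1b, 4 to 6 for IL6, 13 to 18 for TNFa, 31 to 44 in the time course and 3 to 4 for LPS, and the cell type with the highest PBS level stayed the same for 8 of the 8 members. With the replicate number as a block the calls were 13 for IL1b, 4 for IL6, 18 for TNFa, 40 in the time course and 4 for LPS, 35 between cytokines and 19 between MFpc and Mo.6C+ over time (17 without it). Same-numbered libraries did not deviate together in any of 17 fits throughout (r -0.282 to 0.328, median 0.00294). This cannot exclude pairing, because it asked for every same-numbered pair to deviate together. In the time course, with 2 libraries a group, correlations of same and different numbers mirror each other and cannot show it. The main fits did not take the numbers as pairs, and the counts with the block stand beside them. Depth limits the low members: 50 member-by-type pairs for IL1b and 54 for IL6 and TNFa lay below the filter, and time course groups held 2 libraries each.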
